A study of Mus musculus with 12 samples.

Results

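The 8 genes described here mark tendon and the myotendinous junction, the place where muscle fibres attach to tendon. They were chosen by symbol (Scx, Mkx, Tnmd, Thbs4, Comp, Fmod, Chad and Kera), and all 8 were found once each among the 21936 genes listed in the deposited tables. Polyadenylated RNA was sequenced from muscle of C57BL/6N mice aged 3 months. One group was PTRF knockout, labelled as muscular dystrophy, and the other was WT, labelled as normal. PTRF is the caveolar coat protein now called cavin 1, and the type of knockout allele, the cells it acts in and the sex of the mice are not given in the sources used here. The labels name 12 samples from soleus and quadriceps, but each quadriceps sample held the values of the soleus sample with the same genotype and number (largest difference 0). They were therefore counted as 6 libraries, 3 knockout and 3 wild type, whose muscle of origin cannot be told apart from the files. Whether the numbered samples came from separate animals is not stated, so every p-value measures only the spread between these libraries, which may be technical.

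The deposited levels were taken as TPM, a length-corrected share of the library's RNA, and their totals were 848224 to 872482 TPM in knockout libraries and 843194 to 849159 TPM in wild-type libraries. Depth is unknown, since TPM does not keep it. The targeted gene matched its labels, with Cavin1 at 0.0254 to 0.284 TPM in knockout libraries and 39.96 to 45.2 TPM in wild-type libraries. The muscle was recognisable in every library, with Myh7, the myosin heavy chain of slow fibres, at 2196 to 3291 TPM in knockout libraries and 1702 to 2703 TPM in wild-type libraries. Wild-type library 2 stood apart from its group in Myh4, the myosin heavy chain of the fastest fibres, which had 238, 580.1 and 346 TPM in knockout libraries 1, 2 and 3, against 6.43, 193.5 and 4.21 TPM in wild-type libraries 1, 2 and 3. Which muscle these myosin levels point to was not tested. In bulk tissue, a change in the number of cells of a type and a change in RNA per cell cannot be told apart.

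Tendon cells are specified by scleraxis, the basic helix-loop-helix factor encoded by Scx, and by the homeobox factor Mohawk, encoded by Mkx. Mature tendon cells carry tenomodulin, a membrane glycoprotein encoded by Tnmd, and secrete collagens together with glycoproteins that organise them. Among these glycoproteins are the thrombospondins 4 and COMP (Thbs4 and Comp), which form pentamers, and the leucine-rich repeat proteins fibromodulin, keratocan and chondroadherin (Fmod, Kera and Chad). Thrombospondin 4 is also deposited at the myotendinous junction, and chondroadherin and COMP are known from cartilage as well as from tendon.

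Scleraxis dimerises with E proteins and binds the E-box, whose letters are CANNTG, so the 250 bases before the RefSeq start site are shown for the 4 tested tendon genes with an entry in the RefSeq promoter table of GRCm38.p6 (5 of the 8 genes matched). They are printed from 5′ to 3′ on the gene's own strand, with each E-box in capitals.
Thbs4, chr13:92794819-92795068, minus strand: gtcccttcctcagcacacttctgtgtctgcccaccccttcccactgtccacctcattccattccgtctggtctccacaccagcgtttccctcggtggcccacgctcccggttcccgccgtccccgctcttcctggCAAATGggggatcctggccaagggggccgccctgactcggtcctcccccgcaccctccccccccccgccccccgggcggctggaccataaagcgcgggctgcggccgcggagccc
Fmod, chr1:134037004-134037253, plus strand: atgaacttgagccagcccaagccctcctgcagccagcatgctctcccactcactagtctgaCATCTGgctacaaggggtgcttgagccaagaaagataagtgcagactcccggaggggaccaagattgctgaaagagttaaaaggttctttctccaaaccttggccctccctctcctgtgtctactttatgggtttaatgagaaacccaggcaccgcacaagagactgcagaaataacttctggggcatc
Tnmd, chrX:133850758-133851007, plus strand: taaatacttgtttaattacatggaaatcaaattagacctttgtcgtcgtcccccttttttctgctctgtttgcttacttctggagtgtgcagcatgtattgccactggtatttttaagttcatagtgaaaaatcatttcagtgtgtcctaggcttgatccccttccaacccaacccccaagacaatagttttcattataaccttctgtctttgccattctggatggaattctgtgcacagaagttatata
Chad, chr11:94564797-94565046, plus strand: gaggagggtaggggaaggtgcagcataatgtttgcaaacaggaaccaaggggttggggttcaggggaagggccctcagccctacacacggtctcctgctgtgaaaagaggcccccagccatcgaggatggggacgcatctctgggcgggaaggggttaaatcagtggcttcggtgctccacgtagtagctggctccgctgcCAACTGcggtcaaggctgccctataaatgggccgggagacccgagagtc

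On either strand, 1 E-box was found before Thbs4 (115 bases before the start), 1 before Fmod (189 bases) and 1 before Chad (49 bases), and none before Tnmd. Of the 32851 promoter windows of the same length in the RefSeq table, 66.2% hold at least 1 E-box, so its presence does not set these genes apart. The letters CAGAC, the core that SMAD proteins bind, occurred at 2 places before Thbs4 and 2 before Fmod and were not in the windows of Tnmd or Chad (42.2% of all windows). The Chad window alone of these 4 held TATAAA (12.4% of all windows), 28 bases before the start. The letters GCGNGGGCG, bound by EGR factors, were in none of the 4 (4.70% of all windows). All motifs were searched on both strands, no E-box overlapped another of them, and a match describes letters only.

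The 8 genes did not move together. Scx and Thbs4 were several-fold higher in knockout libraries, Chad was lower by a narrow margin, and Tnmd, Comp and Fmod did not pass the test. Mkx and Kera were too low to be tested. The test was limma on log2(TPM + 1) over the 11056 genes that reached 1 TPM in 3 or more libraries, with adjusted p (Benjamini-Hochberg over all of them) under 0.05 taken as passing. Of the 8 genes, 6 met that filter, each at 1 TPM or more in all 6 libraries, so their entry did not depend on 1 group. Among those 6, 2 were higher and 1 was lower. Of all tested genes 36.3% were higher and 2.92% lower. The 6 had a median log2 fold change of -0.03, against an all-gene median of 0.33. Both higher genes and the lower one had groups that did not overlap, as had 48.7% (higher) and 4.83% (lower) of all tested genes. After a trimmed-mean rescaling of the libraries, which moved the all-gene median to -0.02, 13.8% of tested genes were higher and 14.4% lower, and the same 3 tendon genes were called in the same directions, with a median of -0.39 for the 6. Transcripts of the mitochondrial genome, which set part of this scale, took 39.0 to 45.7% of the TPM in knockout libraries and 43.0 to 52.3% in wild-type libraries.

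**Figure D1:**
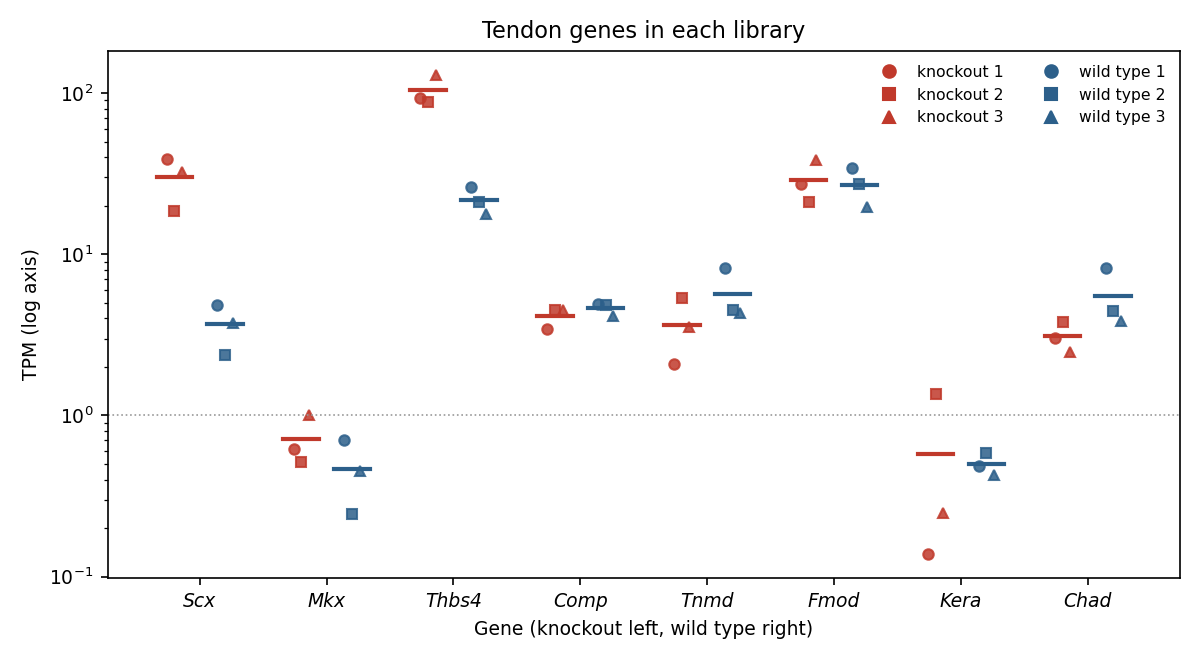
TPM of the 8 tendon genes in each of 6 libraries on a log axis, knockout (red) left of wild type (blue); symbols give the library number, horizontal bars the group mean of 3 libraries, and the dotted line 1 TPM. Scx and Thbs4 lie higher in all 3 knockout libraries than in any wild-type library, Chad lies lower, and the groups overlap for the other 5 genes.

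Scx, the transcription factor that marks tendon progenitors, stood at 39.3, 18.4 and 32.4 TPM in knockout libraries 1, 2 and 3, against 4.87, 2.38 and 3.76 TPM in wild-type libraries 1, 2 and 3. Every knockout library exceeded every wild-type library, and library 2 was the lowest of its group in both genotypes. The mean was 30.05 ± 10.6 TPM in knockout and 3.67 ± 1.25 TPM in wild type (SD, n = 3 each), an 8.19-fold ratio of means. On log2(TPM + 1), a scale that compresses differences between low values, the fold change was 2.71 with an SE of 0.26 (limma adjusted p = 2.5e-05), and 19 of the 11056 tested genes had a larger one. It passed under every alternative tried, with log2 fold changes of 1.98 to 3.01. With the filter raised to 10 TPM, Scx entered through knockout libraries only, so being higher was a condition of that test.

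Scx (ENSMUSG00000034161, chromosome 15 from 76457452 to 76459458 on the plus strand of GRCm38) lies within the span of Bop1, a ribosome biogenesis gene on the minus strand, from 76452989 to 76477277. No exonic base is shared in GENCODE M21. The library kit is not stated to keep strand, and reads from unspliced Bop1 RNA over Scx could not be told apart from Scx. Bop1 stood at 18.4, 9.14 and 11.9 TPM in knockout libraries 1, 2 and 3, against 6.47, 5.32 and 7.80 TPM in wild-type libraries. It rose by a log2 fold change of 0.87 (limma adjusted p = 0.010) on the deposited scale and did not pass after trimmed-mean rescaling (0.50, adjusted p = 0.071). The ratio of Scx to Bop1 was 2.13, 2.02 and 2.72 in knockout libraries and 0.754, 0.446 and 0.481 in wild-type libraries, without overlap. Scx rose more than Bop1 in these same libraries, so the ratio restates that difference and is no separate support. The part of Bop1 reads in the level of Scx was not tested.

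Mkx, the other transcription factor of the set, was near the floor of the measurement. It had 0.615, 0.515 and 1.001 TPM in knockout libraries 1, 2 and 3, against 0.7005, 0.244 and 0.453 TPM in wild-type libraries, and the groups overlap. The mean was 0.711 ± 0.257 TPM in knockout and 0.466 ± 0.229 TPM in wild type (SD, n = 3 each). With a single library at 1 TPM it fell under the filter, and when every gene above 0 was tested its log2 fold change was 0.22 (limma adjusted p = 0.32).

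Thbs4, the pentameric thrombospondin of tendon and the myotendinous junction, stood at 93.2, 88.4 and 130.01 TPM in knockout libraries 1, 2 and 3, against 26.1, 20.98 and 17.8 TPM in wild-type libraries. The groups lie far apart, and knockout library 3 was the highest of all. The mean was 104 ± 22.8 TPM in knockout and 21.6 ± 4.20 TPM in wild type (SD, n = 3 each), a 4.81-fold ratio. Its log2 fold change was 2.21 ± 0.19 (SE; limma adjusted p = 1.0e-05), 76 tested genes had a larger one, and it passed under every alternative, from 1.81 after trimmed-mean rescaling to 2.35 without wild-type library 1. Without both knockout library 1 and wild-type library 2 it was 2.26, and that of Scx 2.27. Thbs4 (ENSMUSG00000021702) lies on chromosome 13 from 92751590 to 92794818 on the minus strand, and no other annotated gene overlaps it.

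Comp, the paralogue of Thbs4 that binds collagen in tendon and cartilage, gave no such difference. It stood at 3.42, 4.48 and 4.49 TPM in knockout libraries 1, 2 and 3, against 4.94, 4.84 and 4.14 TPM in wild-type libraries, and the groups overlap. The log2 fold change was -0.14 with a 95% interval of -0.46 to 0.18 (limma adjusted p = 0.45). Relative to the all-gene median it was -0.47, and after quantile normalization, which equalises the distributions of the libraries, Comp passed as lower (-0.56, adjusted p = 0.036; range over the alternatives 0.036 to 0.97). Among the 3 other thrombospondins measured, Thbs1 and Thbs3 were higher (log2 fold changes 0.72 and 0.72, limma adjusted p = 0.019 for both) and Thbs2 did not pass. Neither Thbs1 nor Thbs3 passed after trimmed-mean rescaling (adjusted p = 0.31 and adjusted p = 0.20). The share of all tested genes that were higher was 36.3% on the deposited scale and 13.8% after rescaling. Thbs1 averaged 11.6 ± 2.99 TPM in knockout and 6.65 ± 1.89 TPM in wild type (SD, n = 3 each).

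Tnmd, the membrane glycoprotein of mature tendon cells and a known target of scleraxis in mouse, stood at 2.10, 5.38 and 3.52 TPM in knockout libraries 1, 2 and 3, against 8.25, 4.50 and 4.30 TPM in wild-type libraries. The groups overlap through knockout library 2. The mean was 3.66 ± 1.65 TPM in knockout and 5.68 ± 2.22 TPM in wild type (SD, n = 3 each), with a log2 fold change of -0.53, a 95% interval of -1.12 to 0.05 and a limma adjusted p of 0.13. Without knockout library 2 it passed as lower (-0.79, adjusted p = 0.019), and over all alternatives the adjusted p ran from 0.019 to 0.44. The interval excludes a rise of the size seen in Scx or Thbs4.

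Fmod, the fibromodulin gene, whose proteoglycan controls the thickness of collagen fibrils, was among the more abundant genes of the set. It stood at 27.2, 21.0 and 38.4 TPM in knockout libraries 1, 2 and 3, against 34.2, 27.3 and 19.5 TPM in wild-type libraries, with overlapping groups. The log2 fold change was 0.09 with a 95% interval of -0.43 to 0.60 (limma adjusted p = 0.78). Its sign turned to negative after quantile normalization, after trimmed-mean rescaling, on a scale without mitochondrial transcripts and without knockout library 3 or wild-type library 3, and it passed under no alternative. Kera, which encodes the related keratan sulphate proteoglycan keratocan, stood at 0.139, 1.36 and 0.247 TPM in knockout libraries 1, 2 and 3, against 0.486, 0.583 and 0.429 TPM in wild-type libraries. Knockout library 2 was above and the other knockout libraries were below all wild-type libraries. Kera was under the filter, and with every gene above 0 in the test its limma adjusted p was 0.996.

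The other small leucine-rich proteoglycans of the tissue, whose list overlaps the fibril matrix genes below in 6 members, gave another picture. Of 10 genes 8 were tested, 7 were higher and none was lower, with Omd not passing, Optc under the filter and Epyc without a value above 0 in any library. Dcn, the decorin gene, averaged 371 ± 32.8 TPM in knockout and 157 ± 4.50 TPM in wild type (SD, n = 3 each), and Bgn, the biglycan gene, 74.1 ± 13.1 TPM in knockout and 20.7 ± 5.91 TPM in wild type. Lum, encoding lumican, rose by a log2 fold change of 1.63 (limma adjusted p = 0.00024) and Podn, encoding podocan, by 1.39 (adjusted p = 5.2e-05). After trimmed-mean rescaling 6 of the 8 were higher, and the median of the list was 1.24 on the deposited scale and 0.84 after rescaling. The all-gene shares called higher were 36.3% on the deposited scale and 13.8% after rescaling.

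Chad, encoding chondroadherin, a leucine-rich repeat protein that binds collagen and integrin, was the 1 gene of the set that passed as lower. It stood at 3.04, 3.82 and 2.47 TPM in knockout libraries 1, 2 and 3, against 8.22, 4.42 and 3.86 TPM in wild-type libraries. The groups do not overlap, but the highest knockout value and the lowest wild-type value lie close together, and wild-type library 1 is far above the other libraries. The mean was 3.11 ± 0.678 TPM in knockout and 5.50 ± 2.37 TPM in wild type (SD, n = 3 each), and the fitted difference was -0.62 ± 0.23 in log2 (SE), at a limma adjusted p of 0.049. Chad also passed after trimmed-mean rescaling (-0.94, adjusted p = 0.030) and did not pass without wild-type library 1 (-0.33, adjusted p = 0.20), without knockout library 1 (adjusted p = 0.11), without knockout library 3 (adjusted p = 0.13) or without wild-type library 2 (adjusted p = 0.054).

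Chad (ENSMUSG00000039084, chromosome 11 from 94565047 to 94569127, plus strand) lies inside the span of Acsf2, a gene of fatty acid activation on the minus strand from 94557102 to 94601871, again with no shared exonic base. Acsf2 stood at 4.86, 2.97 and 4.78 TPM in knockout libraries 1, 2 and 3, against 2.65, 2.15 and 4.56 TPM in wild-type libraries, and did not pass (log2 fold change 0.36, limma adjusted p = 0.20). The Acsf2 groups overlap, and its log2 fold change was 0.04 after trimmed-mean rescaling and -0.07 to 0.60 over the alternatives, so its direction is not established. The part of Acsf2 reads in the level of Chad was not tested. Of the other 6 genes, Mkx alone has an overlapping entry, AC148004.2, which is not listed in the deposited tables.

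**Figure D2:**
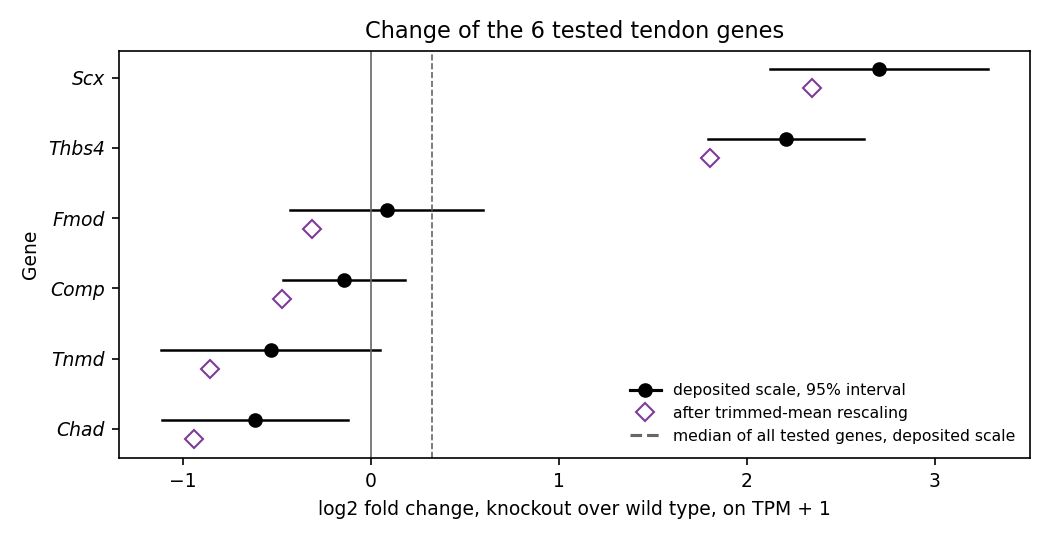
log2 fold change of knockout over wild type on TPM + 1 for the 6 tested tendon genes. Filled points are the deposited scale with 95% intervals, open diamonds are values after trimmed-mean rescaling, the solid line is 0 and the dashed line the median of all tested genes (0.33). Scx and Thbs4 lie above 2 on the deposited scale, and the other 4 genes lie below the all-gene median.

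TPM can be read across genes, so the order of levels was compared as well. The sources used here do not name the unit, so this order rests on taking the levels as TPM. In knockout libraries Thbs4 was the highest (59.4% of the summed mean TPM of the 8 genes), followed by Scx (30.05 TPM) and Fmod (28.9 TPM), whose ranges overlap, then by Comp, Tnmd and Chad, each overlapping with the next, and by Mkx and Kera, which also overlap. In wild-type libraries Fmod (27.0 TPM) and Thbs4 (21.6 TPM) led with overlapping ranges, followed by Tnmd, Chad, Comp and Scx, each overlapping with the next, and by Kera and Mkx, again overlapping. Scx thus took 17.2% of the summed mean in knockout and 5.31% in wild type. The sum of all 8 genes was 143 to 213 TPM in knockout libraries and 54.2 to 87.8 TPM in wild-type libraries. Without Scx and Thbs4, the sum of the other 6 was 36.5 to 50.1 TPM in knockout libraries and 32.7 to 56.8 TPM in wild-type libraries, so the range of wild type spans that of knockout.

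A ratio of 2 genes within a library does not depend on how the library is scaled, and shows whether a pair moved by the same factor. Of the 28 pairs among the 8 genes, 14 had ratios that did not overlap between genotypes. The matching share over pairs of other genes was not computed, so whether 14 of 28 is unusual was not tested. All 12 pairs of Scx or Thbs4 with one of the other 6 genes were among the 14, each higher in knockout, by 1.58 to 3.79 on the log2 scale. These 2 genes were set apart by their rise in the same libraries, so the 12 pairs restate that rise and are no separate support. Every pair with Mkx or Kera, among them Thbs4 with Mkx at 1.58, rests on levels that were too low to be tested. Among the 15 pairs of the other 6 genes, 2 did not overlap (Mkx with Chad and Comp with Chad). That second count rested on knockout library 2: without it 11 of the 15 did not overlap, against 2 to 4 without any other single library, while the first stayed at 12 of 12 in all 6 cases. The exact permutation test, two-sided, gave p = 0.1 for each of the 14, the smallest that 3 against 3 allows, and 0.2 after Benjamini-Hochberg adjustment over the 28 pairs, so no ratio could pass in this design.

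Thbs4 was 16.4 to 44.5 times Tnmd in knockout libraries and 3.16 to 4.67 times Tnmd in wild-type libraries. Thbs4 was 3.39 to 4.20 times Fmod in knockout libraries and 0.763 to 0.909 times Fmod in wild-type libraries, the narrowest spread within groups of these ratios. The ratio of Scx to Tnmd was 18.7, 3.43 and 9.22 in knockout libraries 1, 2 and 3, against 0.591, 0.528 and 0.873 in wild-type libraries. Scx thus exceeded Tnmd in all 3 knockout libraries and lay below it in all 3 wild-type libraries. The ratio of Scx to Thbs4 overlapped between genotypes, at 0.209 to 0.421 in knockout libraries and 0.113 to 0.211 in wild-type libraries (exact permutation test, two-sided p = 0.2). Without knockout library 2, or without wild-type library 3, it no longer overlapped.

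**Figure D3:**
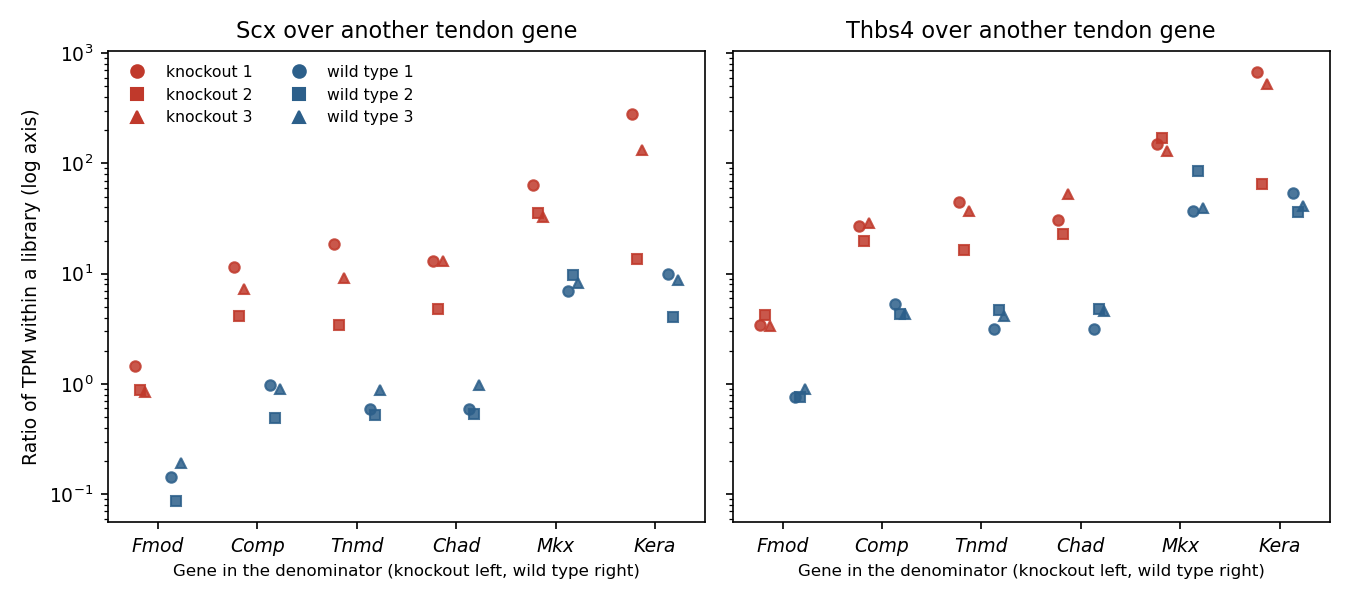
Ratio of the TPM of Scx (left panel) or Thbs4 (right panel) to each of the other 6 tendon genes within a library, on a log axis, knockout (red) left of wild type (blue), with symbols for the library number. In all 12 columns the 3 knockout ratios lie above the 3 wild-type ratios, most closely for Kera, where knockout library 2 has 13.6 for Scx and 65.2 for Thbs4.

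Within the groups the libraries were ordered differently by different genes. Wild-type library 1 was the highest of its group for 7 of the 8 genes (all but Kera), while 17.9% of all tested genes had their wild-type maximum there. Wild-type library 3, which held the wild-type maximum of 69.2% and the minimum of 9.80% of tested genes, was the lowest for 6 of the 8. In the knockout group, library 2 was the lowest for Scx, Mkx, Thbs4 and Fmod and the highest for Tnmd, Chad and Kera. Of all tested genes 54.4% were lowest and 16.9% highest in knockout library 2.

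Profiles over the 6 libraries were compared by the root mean square difference of log2(TPM + 1) after centring each gene on its own mean. The 3 tested genes nearest to Scx were Gbp3 (0.17), Isg15 (0.20) and Uck2 (0.21). Those nearest to Thbs4 were Serpinb1a (0.12), H2-Q7 (0.16), a member of a multicopy family whose reads may be divided, and Capg (0.18). Scx and Thbs4 differed by 0.44 from each other, with 50 genes nearer to Scx than Thbs4 was. Tnmd and Chad were close, at 0.26, with 5 genes nearer to Tnmd than Chad was. Among genes outside the set the nearest were Ndufc1 (0.22), Dnajc15 (0.22) and Nnat (0.23) to Tnmd, Pde4a (0.17), Hddc3 (0.19) and Rassf9 (0.21) to Chad, mt-Atp6 (0.05), Ndufaf2 (0.07) and Fam110a (0.07) to Comp, and Serpinb1c (0.13), Zfpm1 (0.18) and Edn1 (0.18) to Fmod. These distances include the difference between genotypes.

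The collagens and matrix proteins that tendon shares with other connective tissue were higher together. Of a list of 20 fibril matrix genes 19 were tested, and all 19 were higher (median log2 fold change 1.29). After trimmed-mean rescaling 17 were higher, none was lower and the median was 0.91. Among all tested genes 36.3% were higher on the deposited scale and 13.8% after rescaling. Col3a1, the collagen of reticular fibres, averaged 103 ± 45.2 TPM in knockout and 21.1 ± 2.503 TPM in wild type (SD, n = 3 each), and Col5a2, a chain of the collagen that nucleates fibrils, 11.2 ± 0.835 TPM in knockout and 3.50 ± 0.412 TPM in wild type. Col14a1, a fibril-associated collagen, rose by a log2 fold change of 1.46 (limma adjusted p = 4.4e-05). Tnc, encoding tenascin C, stayed below 1 TPM in wild type and entered the test through the knockout libraries, so being higher was a condition of its test. Col11a1 was under the filter.

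Some genes of the tendon sheath and the tissue around tendon were higher. Of 8 genes 7 were tested, 5 were higher and none lower, and 3 were higher after trimmed-mean rescaling. For all tested genes the shares called higher were 36.3% on the deposited scale and 13.8% after rescaling. Cilp, encoding a matrix protein of cartilage and tendon, averaged 50.2 ± 8.03 TPM in knockout and 8.04 ± 1.55 TPM in wild type (SD, n = 3 each), a log2 fold change of 2.503 (limma adjusted p = 3.4e-06). Prg4, encoding the lubricant lubricin, stood at 45.8, 26.7 and 55.9 TPM in knockout libraries 1, 2 and 3, against 14.2, 16.9 and 13.1 TPM in wild-type libraries. The protease gene Ctsk rose by 1.51 (adjusted p = 2.1e-05) and Clu, encoding clusterin, by 0.59 (adjusted p = 0.0083), the second not after rescaling (adjusted p = 0.22). Tppp3, added after its values were seen, passed narrowly (0.51, adjusted p = 0.049) and not after rescaling (0.11, adjusted p = 0.64). Angptl7 (-0.32, adjusted p = 0.46) and Htra1 (0.14, adjusted p = 0.48) passed on neither scale, and Cilp2 was under the filter. None of 14 cartilage and bone genes reached the filter. Their highest single value was 0.429 TPM, Matn1, Sp7 and Bglap had no value above 0 in any library, and their sum was 0.627 to 0.854 TPM in knockout libraries and 0.431 to 0.725 TPM in wild-type libraries.

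Scx is induced by TGF-beta signalling in mouse tendon, and E proteins are its dimer partners. Of 18 such regulators and partners 17 were tested, of which 13 were higher and 1 was lower, with a median of 0.56, and after trimmed-mean rescaling 3 were higher and 1 was lower, with a median of 0.19. Of all tested genes 36.3% were higher on the deposited scale and 13.8% after rescaling, so the count after rescaling lies near the all-gene share. The 3 higher after rescaling were Tgfb1, Tgfbr2 and Egr1. Tgfb1, the ligand, stood at 8.57, 6.73 and 9.45 TPM in knockout libraries 1, 2 and 3, against 2.64, 1.60 and 2.57 TPM in wild-type libraries (log2 fold change 1.51, limma adjusted p = 8.3e-05). Egr1, a zinc finger factor of tendon cells that also responds to many acute stimuli, stood at 6.85, 11.8 and 22.7 TPM in knockout libraries against 2.72, 1.55 and 1.54 TPM in wild-type libraries (2.21, adjusted p = 0.00033). The receptor gene Tgfbr2 rose by 0.88 (adjusted p = 0.00047), and Tcf3, which encodes E proteins, by 0.72 (adjusted p = 0.0036) on the deposited scale and not after rescaling (adjusted p = 0.059).

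The single gene of that list that was lower was Sox9, the cartilage factor expressed with Scx in progenitors of the tendon attachment. It stood at 2.33, 2.67 and 2.497 TPM in knockout libraries 1, 2 and 3, against 6.24, 3.53 and 6.48 TPM in wild-type libraries (log2 fold change -0.84, limma adjusted p = 0.0054). The groups do not overlap.

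Of a list of 19 genes of the junction and of adhesion and force transmission in muscle, 15 were higher and none was lower, with a median of 0.90. After trimmed-mean rescaling 11 were higher, with a median of 0.50. The shares of all tested genes that were higher were 36.3% on the deposited scale and 13.8% after rescaling. Ankrd1, a stretch-responsive ankyrin repeat gene, stood at 39.1, 19.5 and 43.0 TPM in knockout libraries 1, 2 and 3, against 4.93, 3.46 and 6.78 TPM in wild-type libraries (log2 fold change 2.49, limma adjusted p = 6.1e-05). Xirp1, encoding an actin-binding protein concentrated at the junction, averaged 193 ± 44.6 TPM in knockout and 53.5 ± 9.74 TPM in wild type (SD, n = 3 each), and Flnc, encoding filamin C, 359 ± 83.8 TPM in knockout and 119 ± 11.6 TPM in wild type. Vcl, encoding vinculin, rose by 1.07 (adjusted p = 0.00015). Col22a1, the collagen made at the myotendinous junction, did not pass. It had 2.32, 3.70 and 2.08 TPM in knockout libraries 1, 2 and 3, against 2.36, 1.70 and 2.22 TPM in wild-type libraries, with a log2 fold change of 0.24, a 95% interval of -0.15 to 0.63 and an adjusted p of 0.28. It was named after its values were seen.

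**Figure D4:**
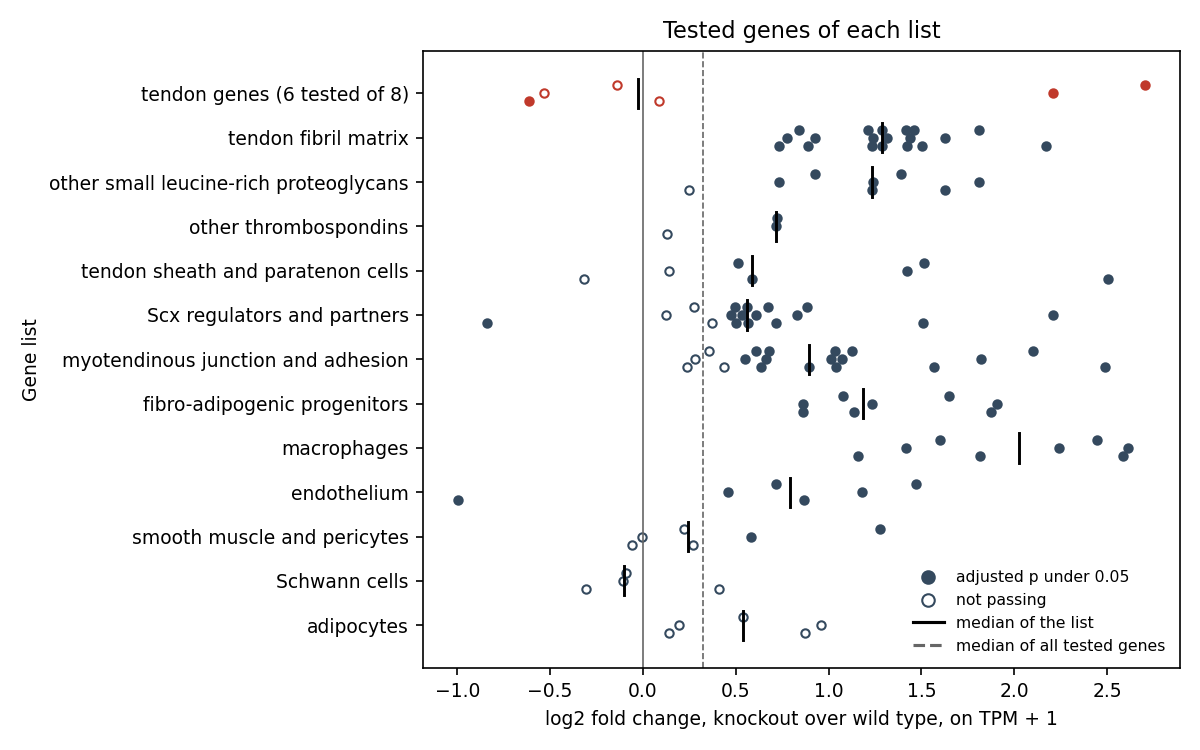
log2 fold change of knockout over wild type on TPM + 1 for the tested genes of each list. Filled points passed limma at an adjusted p of 0.05, open points did not, short bars are list medians, the solid line is 0 and the dashed line the all-gene median (0.33). The tendon genes are split between 2 points above 2 and 4 points below the all-gene median, while all 19 fibril matrix genes lie above it.

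Most markers of 3 other cell types (fibro-adipogenic progenitors, macrophages and endothelium) were higher in knockout libraries on both scales. Their counts stand beside the 36.3% of all tested genes that were higher on the deposited scale and the 13.8% after trimmed-mean rescaling. All 8 genes of fibro-adipogenic progenitors, the connective tissue cells between fibres, were higher, and 7 after rescaling. Their sum was 774 to 851 TPM in knockout libraries and 270.1 to 309 TPM in wild-type libraries. All 8 macrophage genes were higher on both scales, with a sum of 159 to 201 TPM in knockout libraries and 32.8 to 39.5 TPM in wild-type libraries. Dpp4 in the first list has wild-type values under 1 TPM, as has Adgre1 in the second, so both entered the test through knockout libraries. Of 6 endothelial genes 5 were higher and 1, Kdr, was lower, and after rescaling 4 were higher and 1 lower (sum 155 to 172 TPM in knockout libraries and 76.9 to 84.4 TPM in wild-type libraries).

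Of 6 genes of smooth muscle and pericytes 2 were higher, a share near that of all genes, and 1 after rescaling (sum 196 to 208 TPM in knockout libraries and 165 to 173 TPM in wild-type libraries). Of 4 tested Schwann cell genes none passed on the deposited scale, and 2 were lower after rescaling (sum 47.1 to 58.1 TPM in knockout libraries and 42.5 to 50.01 TPM in wild-type libraries). No adipocyte gene, of 5 tested, passed on either scale (sum 22.8 to 104 TPM in knockout libraries and 25.2 to 57.4 TPM in wild-type libraries). For satellite cells, the stem cells of muscle, 2 of 3 tested genes were higher on the deposited scale and 0 after rescaling (sum 13.4 to 18.3 TPM in knockout libraries and 10.1 to 12.2 TPM in wild-type libraries). Of 9 muscle fibre genes 1, Myh4, was higher, and after rescaling 1 was higher and 1 lower (sum 34441 to 42254 TPM in knockout libraries and 30840 to 33415 TPM in wild-type libraries). Dcn is in the fibro-adipogenic list and in the 2 matrix lists. The part of these cell types in the levels of Scx, Thbs4 and the matrix genes was not tested.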

How the data were processed

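The deposited values, 1 table per sample with gene identifier, symbol and value, were taken as TPM from the values alone, since the sources used here do not name the unit. The submitters' processing notes list STAR 2.5.3a, kallisto 0.43.0, GRCm38 and mm10 but give no roles. Per the labels' protocols, TRIzol RNA and a NEBNext Ultra kit were used. A gene not listed for a sample was given 0. The genotypes were compared with limma 3.58.1 (R 4.3.3, intensity trend, 4 residual degrees of freedom) on log2(TPM + 1), and single ratios with exact permutation tests (scipy 1.17.1). Tables and plots were made with pandas 2.3.3, numpy 2.4.6 and matplotlib 3.10.9 in Python 3.11.15. The limma step was tested on simulated data. Trimmed-mean rescaling left out 30% of log ratios and 5% of levels at each end. The fit was repeated after quantile normalization, on a scale without mitochondrial genes, with pseudocounts of 0.1 and 5, with the filter raised to 10 TPM or dropped, with no trend, with replicate numbers as a block, with a fold threshold (log2 of 1 in either direction), and with libraries left out.

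The 8 genes and all lists were chosen with earlier results of these data known. Besides these genes, the text names genes that overlap them, the 3 nearest profiles, up to 4 passing genes with the smallest adjusted p in 6 lists, and single genes said to be added. Genes singled out for not passing, or as the only one in a direction, were named after their values were seen. Annotation is GENCODE M21 (GRCm38).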

Additional observations from a re-analysis of the deposited data

How the results depend on the processing

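Scx and Thbs4 kept their direction and passed under all 17 alternatives, with Scx at 2.49 to 3.01 and Thbs4 at 2.04 to 2.35 when a library was left out. Scx met the 10 TPM filter through knockout libraries only, so its pass there is no separate support. Chad kept its direction but did not pass on the scale without mitochondrial genes (-0.78), with no filter (-0.62), with a pseudocount of 5 (-0.35), without knockout library 1 and wild-type library 2 together (-0.71), or when a log2 fold change of at least 1 was also required (-0.62), and it ran from -0.80 to -0.33 when a library was left out. Comp passed only after quantile normalization (-0.56) and ran from -0.21 to -0.04 with a library left out. Tnmd passed only without knockout library 2, with a range of -0.79 to -0.27. Fmod changed sign after quantile normalization (-0.23), trimmed-mean rescaling (-0.31) and on the scale without mitochondrial genes (-0.11), and ran from -0.13 to 0.28 with a library left out. The cause was not tested for any of these.

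Of all tested genes 4339 passed on the deposited scale, 4016 higher and 323 lower. There were 2823 after quantile normalization (1373 higher and 1450 lower), 1839 with the 10 TPM filter (fewer genes tested), 1886 without knockout library 1 and wild-type library 2, 912 with the added fold threshold, and 2648 (without knockout library 1) to 4458 (without knockout library 2) with a library left out. It was 2724 without knockout library 3 and 2784 without wild-type library 2. On the scale without mitochondrial genes 2634 were higher and 759 lower. The number of ratios without overlap ran from 14 to 24 with a library left out. It was 24 without knockout library 2 and at most 17 without any other, and the cause was not tested. With the replicate number as a block 4373 genes and the same 3 tendon genes passed (Chad adjusted p = 0.020). Deviations from the group means correlated at 0.03, -0.01 and 0.04 between libraries of the same number, and at -0.135 to 0.0984 between those of different numbers. Whether the numbers pair the samples by animal or batch is not stated, and these correlations cannot show it. Depth is unknown, and nothing can be said of counting error for Mkx and Kera.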
